A study of Mus musculus with 6 samples.

Results

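Neutrophils are called into injured tissue by a small family of CXC chemokines, and 7 of its genes were followed here through the cells of the mouse heart, 5 ligands (Cxcl1, Cxcl2, Cxcl3, Cxcl5 and Ppbp) and 2 receptors (Cxcr2 and Cxcr1). They were taken by gene symbol from the 32285 genes of the count matrices. All 7 were detected. In each of the 6 libraries the unique molecular identifiers (UMIs, each standing for 1 captured transcript) of each gene were summed over marker-defined cell classes, to show which cells carried ligand transcripts and which carried receptor transcripts.

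As background, these ligands carry a Glu-Leu-Arg motif ahead of the CXC cysteines and bind CXCR2, a G protein-coupled receptor on neutrophils. Interleukin-1, tumour necrosis factor and Toll-like receptors induce several of them through NF-kB, and released chemokine held on the vessel wall guides neutrophils out of the blood. After coronary ligation neutrophils enter the dying muscle early, and monocytes and macrophages follow.

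Non-cardiomyocytes of the heart were profiled with 10x Genomics 3' single-cell RNA sequencing after a sham operation or after tying off the left anterior descending artery (LAD ligation), which causes an infarct. Wild-type mice (WT, strain C57BL/6JRj) were set beside Trpm4 knockouts (KO, strain B6.Cg-Trpm4tm1.2-PG), in which the calcium-activated cation channel gene Trpm4 is targeted. All mice were males aged 8 to 12 weeks, and hearts were taken 24 h after sham surgery, 24 h after ligation or 72 h after ligation. Each of the 6 combinations is 1 library of sorted live cells (positive for Calcein-AM, negative for DAPI) pooled from 4 mice, so there is no replicate, no test was made, and every interval given covers counting error only.

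The ligand genes form a cluster on chromosome 5 (GRCm38, GENCODE M21). Cxcl5 (ENSMUSG00000029371) lies at chr5:90759360-90761624, Ppbp (ENSMUSG00000029372) at chr5:90768518-90770063, Cxcl3 (ENSMUSG00000029379) at chr5:90786103-90789600, Cxcl1 (ENSMUSG00000029380) at chr5:90891241-90893115 and Cxcl2 (ENSMUSG00000058427) at chr5:90903871-90905938, all on the plus strand. The receptors are neighbours on chromosome 1, Cxcr2 (ENSMUSG00000026180) at chr1:74153989-74161246 on the plus strand and Cxcr1 (ENSMUSG00000048480) at chr1:74191785-74194631 on the minus strand.

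The stretch just upstream of the transcription start is shown for 4 ligands, because NF-kB is the textbook inducer of several of them. Each line gives the bases from -100 to -31 relative to the RefSeq start (GRCm38.p6, plus strand, 5′ to 3′), and capitals mark the NF-kB-type motif GGGNNTTTCC found on either strand.
Cxcl1, chr5:90891145-90891214: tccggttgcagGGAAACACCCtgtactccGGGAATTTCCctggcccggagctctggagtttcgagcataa
Cxcl2, chr5:90903799-90903868: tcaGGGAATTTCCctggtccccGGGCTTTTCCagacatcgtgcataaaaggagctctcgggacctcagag
Cxcl3, chr5:90786001-90786070: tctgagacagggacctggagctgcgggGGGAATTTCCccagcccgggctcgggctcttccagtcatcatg
Ppbp, chr5:90768418-90768487: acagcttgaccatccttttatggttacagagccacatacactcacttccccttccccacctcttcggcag
Cxcl1 holds 1 match on the same strand at -71 to -62 and 1 on the opposite strand at -89 to -80, Cxcl2 holds matches at -97 to -88 and -78 to -69, and Cxcl3 holds 1 at -73 to -64. No match overlaps another. The motif lies in the 300-base window (250 bases before to 50 after the start) of 3 of the 6 members in the promoter table, and not in the windows of Ppbp, Cxcr2 and Cxcr1. Of all 32851 windows in that table, 535 hold it, or 1.63%. A match is a run of letters and not a measured binding site. Cxcl5 is not in the table.

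The deposited matrices held 34940 cells and 199708815 UMIs, and 32085 cells were kept, from 3365 to 6824 per library. Median depth was 3073 to 8011 UMIs per cell in 5 libraries and 1350 in the KO 72 h library. Any 2 libraries shared 3 to 12 cell barcodes. Clustering without the 7 genes gave 36 clusters, 30 of them named from markers as fibroblast-like, neutrophil-like and so on (written below without the suffix) and 6 left unnamed with 2603 cells. Summed neutrophil markers ran from 68175 to 180109 CPM (UMIs per 1000000 UMIs of the class) in neutrophils and from 252 to 3565 CPM in monocytes and macrophages. Trpm4 itself was lower in KO in each condition, with 183 against 259 UMIs in sham, 130 against 119 UMIs from more cells at 24 h (CPM ratio 0.645, 95% interval 0.499 to 0.834) and 50 against 180 at 72 h, but the labels do not place the deletion, so whether these 3' tags check the genotype is not known.

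Cxcl5 transcripts were almost all in fibroblasts. Fibroblasts held 98.9% of the UMIs of this ligand, known from stromal and epithelial cells, in WT sham and 95.4% in KO sham, 94.4% and 92.9% at 24 h, and 90.4% and 67.7% at 72 h. The fibroblast level was 538 CPM in WT sham (2183 UMIs) and 399 in KO sham (1741 UMIs). It was 1707 CPM in WT (4386 UMIs) and 751 in KO (1785 UMIs) at 24 h, and 359 CPM in WT (1210 UMIs) and 140 in KO (281 UMIs) at 72 h. WT at 24 h was thus the highest library and KO at 72 h the lowest, and the intervals of all 6 libraries were apart from one another. That KO 72 h value comes from 881 fibroblasts with a median of 1052 UMIs, against 8844.5 to 11934.5 UMIs in the fibroblasts of the other 5 libraries, and the part of this depth gap in the value was not tested.

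A minority of fibroblasts had it, and a few cells held most of it. The share of fibroblasts with at least 1 Cxcl5 UMI, not adjusted for depth, was 10.8% in WT sham, 9.23% in KO sham, 23.5% in WT 24 h, 33.1% in KO 24 h, 30.1% in WT 72 h and 9.42% in KO 72 h. With each cell thinned to 1000 UMIs, the shares were 4.88%, 4.95%, 14.9%, 16.6%, 12.1% and 8.33% in the same order. The thinned intervals of WT and KO overlapped in each condition. Thinning left out 401 of 881 fibroblasts in KO 72 h. B cells, which should lack Cxcl5, had 0% to 1.01% unthinned at medians of 2529.5 to 5078 UMIs. Between 3 and 7 fibroblast barcodes held 50% of all fibroblast Cxcl5 UMIs in each library, so a level in this class describes a handful of cells. One barcode alone held 681 of the 2183 UMIs in WT sham.

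Cxcl1, the mouse keratinocyte chemoattractant, was also mainly a fibroblast transcript, though less exclusively. Fibroblasts held 68.8% of its UMIs in WT sham and 60.4% in KO sham, 70.8% and 74.9% at 24 h, and 74.3% and 35.3% at 72 h. The level was 132 CPM in WT sham (537 UMIs) and 73.4 in KO sham (320 UMIs), 707 in WT 24 h (1816 UMIs) and 545 in KO 24 h (1295 UMIs), and 190 in WT 72 h (639 UMIs) and 54.3 in KO 72 h (109 UMIs). Both 24 h libraries stood above all others. These levels too describe few cells, as 2 to 6 fibroblast barcodes held 50% of the fibroblast Cxcl1 UMIs in each library. The top barcode held 207 of the 537 UMIs in WT sham, 470 of 1816 in WT 24 h and 205 of 1295 in KO 24 h.

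Outside fibroblasts, the large classes had less Cxcl1. Monocytes and macrophages had 44.1 CPM in WT 24 h, where 208 of 370 UMIs lay in 1 barcode, and 2.12 to 10.4 CPM in the other 5 libraries. Endothelial cells had 48.4 CPM in WT 24 h, where 58 of 156 UMIs lay in 1 barcode, and 2.62 to 6.27 CPM elsewhere. Neutrophils had 14.0 to 29.5 CPM in all 6 libraries, and pericytes reached 196 CPM in KO 24 h. In KO 72 h, the library with the lowest fibroblast share, mesothelial cells held 17.2% of the Cxcl1 UMIs at 111 CPM, and an unnamed cluster led by pericyte genes held 21.4% at 154 CPM, both above the 54.3 CPM of fibroblasts there. In KO sham pericytes (87.2 CPM, 25 UMIs) and mesothelial cells (77.1 CPM, 27 UMIs) were also above fibroblasts. A small unnamed cluster (cluster 34, 20 cells there) had 37 UMIs at 140.0 CPM, of which 34 lay in 1 barcode.

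Within fibroblasts the sham and 24 h transcripts came from 1 cluster. The leading genes of cluster 31 (188 cells) included Ptx3, a soluble pattern recognition protein, Timp1, an inhibitor of matrix proteases, and Inhba, an activin subunit, besides Cxcl5 and Cxcl1 themselves, which had been kept out of the clustering. It held 94.7% and 93.2% of fibroblast Cxcl5 UMIs in WT and KO sham and 99.7% and 99.4% at 24 h. For Cxcl1 these shares were 83.1% and 78.1% in sham and 96.4% and 98.3% at 24 h. It made up 17 and 30 cells in WT and KO sham, 4.59% and 6.76% of fibroblasts, and 58 and 73 cells at 24 h, 29.6% and 40.3%. Its fibroblast name is less firm than that of the other fibroblast clusters. All 12 fibroblast markers were detected in at least 20% of its cells, but none was among its 10 leading genes. Its mean marker level, relative to the highest cluster for each marker, was 0.165, against 0.489 to 0.578 in the other fibroblast clusters.

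Inside cluster 31 Cxcl5 stood at 3299 CPM in WT sham, 2660 in KO sham, 3706 in WT 24 h and 1253 in KO 24 h, and Cxcl1 at 712, 410, 1484 and 899 CPM in the same order. The Cxcl5 level inside the cluster was thus lower at 24 h than in sham in KO, and 3706 against 3299 CPM in WT. That WT sham level comes from few cells, and 1 barcode held 681 of the 2183 fibroblast Cxcl5 UMIs there. How it compares with 24 h without that barcode was not tested. The cluster's share of fibroblasts was larger at 24 h in both genotypes. Of the cluster's cells, 94.1%, 83.3%, 70.7% and 72.6% had a Cxcl5 UMI in the order above. The cells of this cluster had a median of 19868 UMIs, 5.30 times the median of their libraries, and the part of doublets in them was not tested beyond the caller.

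At 72 h a different fibroblast cluster carried both genes. Cluster 9, led by the matrix genes Cthrc1, Col1a1 and Postn, had 99 cells in WT and 847 in KO and held 97.0% and 98.2% of fibroblast Cxcl5 UMIs, with 97.8% and 85.3% of those of Cxcl1. Its Cxcl5 level was 392.1 CPM in WT, where its cells had a median of 33280 UMIs, and 155.0 CPM in KO, where they had 1028. The part of depth in this was not tested. The 24 h and 72 h fibroblast values thus come mainly from different clusters. KO 72 h supplied 88.7% of the cells of cluster 9. The part of cell state, library or depth in this split was not tested.

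**Figure D1:**
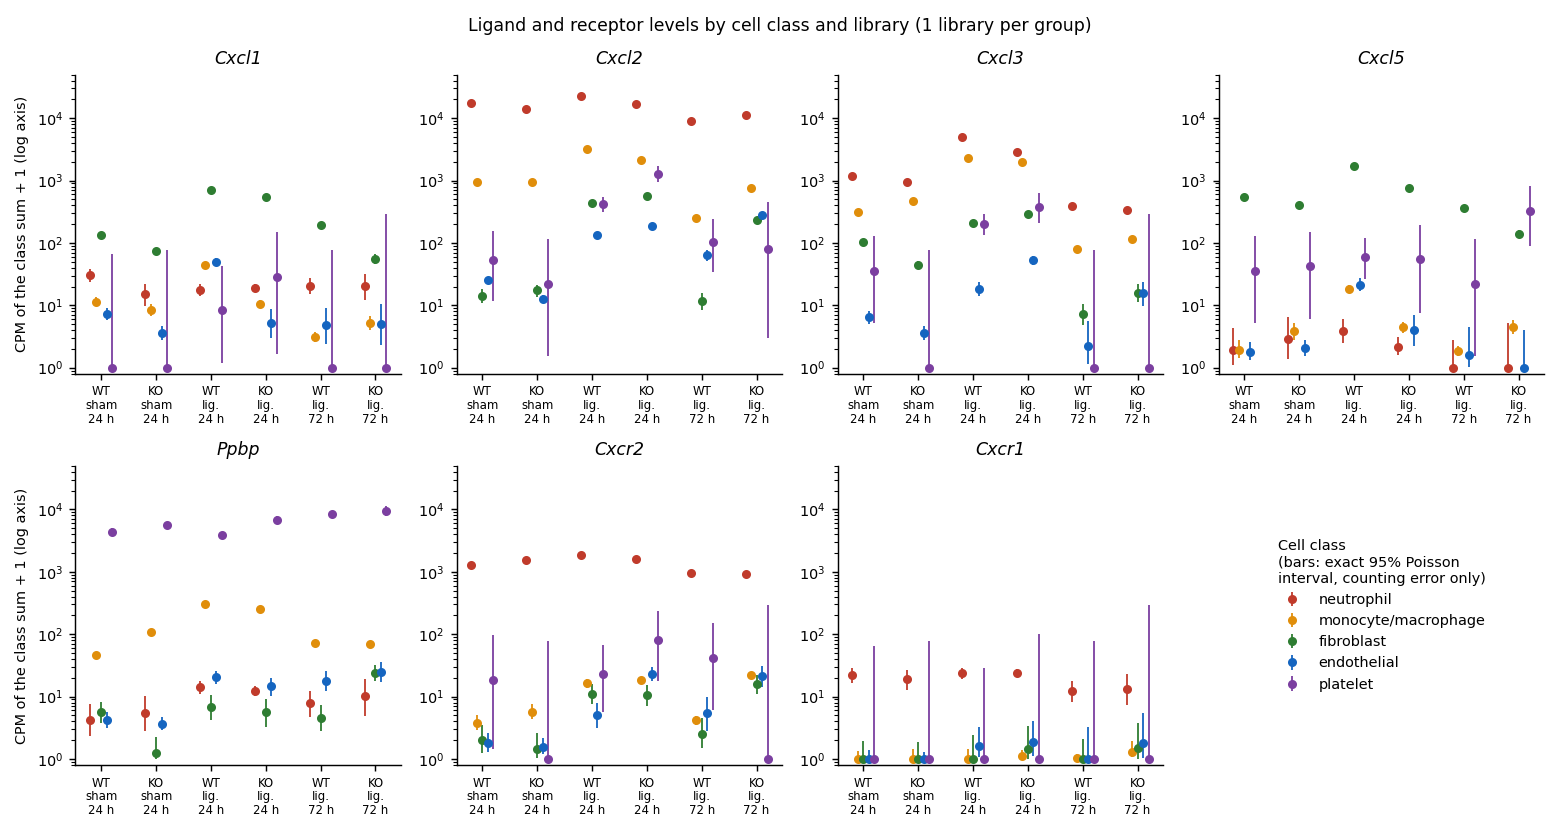
Level of each of the 7 genes (CPM of the class sum plus 1, log axis) in 5 cell classes in the 6 libraries, with 95% Poisson intervals for counting error. Cxcl5 and Cxcl1 are highest in fibroblasts (except the sparse platelet Cxcl5 of KO 72 h), Cxcl2, Cxcr2 and Cxcr1 in neutrophils, Cxcl3 in neutrophils and in monocytes and macrophages, and Ppbp in platelets.

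Cxcl2, the macrophage inflammatory protein 2 gene, was the most abundant ligand by UMIs and lay mainly in neutrophils themselves. Neutrophils held 76.9% of its UMIs in WT sham and 70.9% in KO sham, 74.3% and 77.6% at 24 h, and 69.4% and 47.3% at 72 h. The neutrophil level was 17569.9 CPM in WT sham (37571 UMIs) and 14099 in KO sham (22136 UMIs), 22806 in WT 24 h (96056 UMIs) and 16618 in KO 24 h (158680 UMIs), and 8924 in WT 72 h (18243 UMIs) and 11325 in KO 72 h (9996 UMIs). The 72 h libraries were the lowest of each genotype, and the sham libraries were already within 1.30-fold of the 24 h ones.

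Most neutrophils had the transcript. With each cell thinned to 1000 UMIs, 85.0% of neutrophils in WT sham, 82.1% in KO sham, 94.8% in WT 24 h, 90.8% in KO 24 h, 69.6% in WT 72 h and 74.6% in KO 72 h had a Cxcl2 UMI (unthinned 89.2%, 88.1%, 96.8%, 94.4%, 76.1% and 79.5%). B cells thinned alike had 0% to 10.6%.

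Monocytes and macrophages were the second source of Cxcl2. They held 18.9% to 34.9% of its UMIs, at 946 CPM in WT sham (10069 UMIs) and 946 in KO sham (7767 UMIs), 3241 in WT 24 h (27219 UMIs) and 2166 in KO 24 h (38616 UMIs), and 246 in WT 72 h (6596 UMIs) and 764 in KO 72 h (7377 UMIs). WT thus went from the highest of the 6 at 24 h to the lowest at 72 h. The thinned share of cells with a UMI went in WT from 26.3% in WT sham to 51.0% at 24 h and 10.96% at 72 h, and in KO from 26.5% to 47.1% and 28.1%. Thinning left out 1081 of 2710 cells in KO 72 h and 4 to 34 in the other libraries. In KO the intervals of the 72 h share (25.9% to 30.4%) and the sham share (23.4% to 29.7%) overlapped, while the level was lower at 72 h.

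Fibroblasts had 13.3 and 16.3 Cxcl2 CPM in WT and KO sham, 438 and 556 at 24 h, and 10.7 and 234 at 72 h. In WT 24 h 1 barcode held 391 of those 1126 UMIs. Endothelial cells had 24.0 and 11.7 CPM in sham, 132 and 188 at 24 h, and 61.8 and 284 at 72 h. Beside these values, the 12 summed neutrophil markers were 701 and 561 CPM in fibroblasts of WT and KO sham, 953 and 1611 at 24 h, and 212 and 1955 at 72 h. In endothelial cells the same sum was 226 and 133 CPM in sham, 485 and 1855 at 24 h, and 197 and 4121 at 72 h. In WT fibroblasts Cxcl2 was 32.9-fold higher at 24 h than in sham, and the marker sum was 953 against 701 CPM. From 24 h to 72 h in KO fibroblasts Cxcl2 was lower and the marker sum higher. Neutrophils had 33.1 and 24.8 Cxcl2 UMIs per 100 UMIs of the neutrophil gene S100a9 in WT and KO sham. At 24 h they had 32.7 and 22.1, and at 72 h 31.5 and 44.2. In fibroblasts the same measure was 75.0 and 161 in sham, 492 and 125 at 24 h, and 17.4 and 32.1 at 72 h. In endothelial cells it was 31.3 and 33.3 in sham, 92.2 and 25.7 at 24 h, and 137.5 and 15.5 at 72 h. The part of neutrophil transcripts in the Cxcl2 of both classes was not tested.

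Cxcl3, a close relative of Cxcl2, was divided between neutrophils and monocytes and macrophages. Neutrophils held 39.0% of its UMIs in WT sham and 25.8% in KO sham, 49.4% and 41.3% at 24 h, and 25.8% and 16.5% at 72 h. Monocytes and macrophages held 51.2% and 67.2% in sham, 45.5% and 54.1% at 24 h, and 69.2% and 63.7% at 72 h. WT at 24 h was the library in which neutrophils had the larger share.

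The neutrophil Cxcl3 level was 1170 CPM in WT sham (2501 UMIs) and 929.9 in KO sham (1460 UMIs), 4965 in WT 24 h (20913 UMIs) and 2845 in KO 24 h (27165 UMIs), and 383 in WT 72 h (783 UMIs) and 331 in KO 72 h (292 UMIs). In monocytes and macrophages it was 308 CPM in WT sham (3278 UMIs) and 463 in KO sham (3806 UMIs), 2293 in WT 24 h (19253 UMIs) and 1997 in KO 24 h (35600 UMIs), and 78.1 in WT 72 h (2098 UMIs) and 116 in KO 72 h (1124 UMIs). Both classes were highest at 24 h and lowest at 72 h in both genotypes. The share of neutrophils with a Cxcl3 UMI, thinned, was 28.1% and 27.0% in sham, 64.5% and 49.3% at 24 h, and 11.6% and 11.7% at 72 h. The transcript was unevenly spread in monocytes and macrophages, where 10 to 72 barcodes held 50% of the UMIs of a library.

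One macrophage cluster carried most of that Cxcl3. Cluster 2 (2303 cells), led by Arg1, the arginine-degrading enzyme arginase 1, and by the chemokine genes Ccl24, Ccl9, Ccl6 and Ccl2, held 97.1% and 96.8% of monocyte and macrophage Cxcl3 in WT and KO sham, 97.5% and 93.4% at 24 h, and 21.3% and 49.6% at 72 h. Its own Cxcl3 level was 643 and 870 CPM in sham, 3459 and 3289 at 24 h, and 332 and 973 at 72 h. At 72 h cluster 7, led by Gpnmb, the lipid receptor gene Trem2 and the osteopontin gene Spp1, held 54.2% in WT and 24.9% in KO.

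Cluster 2 also had Cxcl2, at 1647 and 1621 CPM in WT and KO sham, 4456 and 3113 at 24 h, and 1244 and 2611 at 72 h. A low-UMI macrophage cluster (cluster 6), where 1181 of 1307 cells were of KO 72 h, had 1468 Cxcl2 CPM in that library. The KO 72 h value of the class therefore mixes cells that the other libraries hardly held.

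The neutrophil clusters were more alike. Cluster 1, led by Ccrl2, Tnf and Il1b, had 19534 and 15667 Cxcl2 CPM in WT and KO sham, 21335 and 16830 at 24 h, and 9781 and 11068 at 72 h. Cluster 3, led by the granule and surface genes Retnlg and Cd177, made up 12 and 22 neutrophils in sham against 648 and 1495 at 24 h, and had 24511 and 17522 CPM at 24 h. Cluster 17, led by Retnlg, S100a8 and the neutrophil surface gene Ly6g, was lowest in each library of those 4, with 8806 and 6160 CPM in sham and 12643 and 10156 at 24 h. For Cxcl3 at 24 h, cluster 3 had 5829 CPM in WT and 3857 in KO, the interferon-gene cluster 13 had 6162 and 3056, cluster 1 had 3318 and 1936, and cluster 17 had 1495 and 813.

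**Figure D2:**
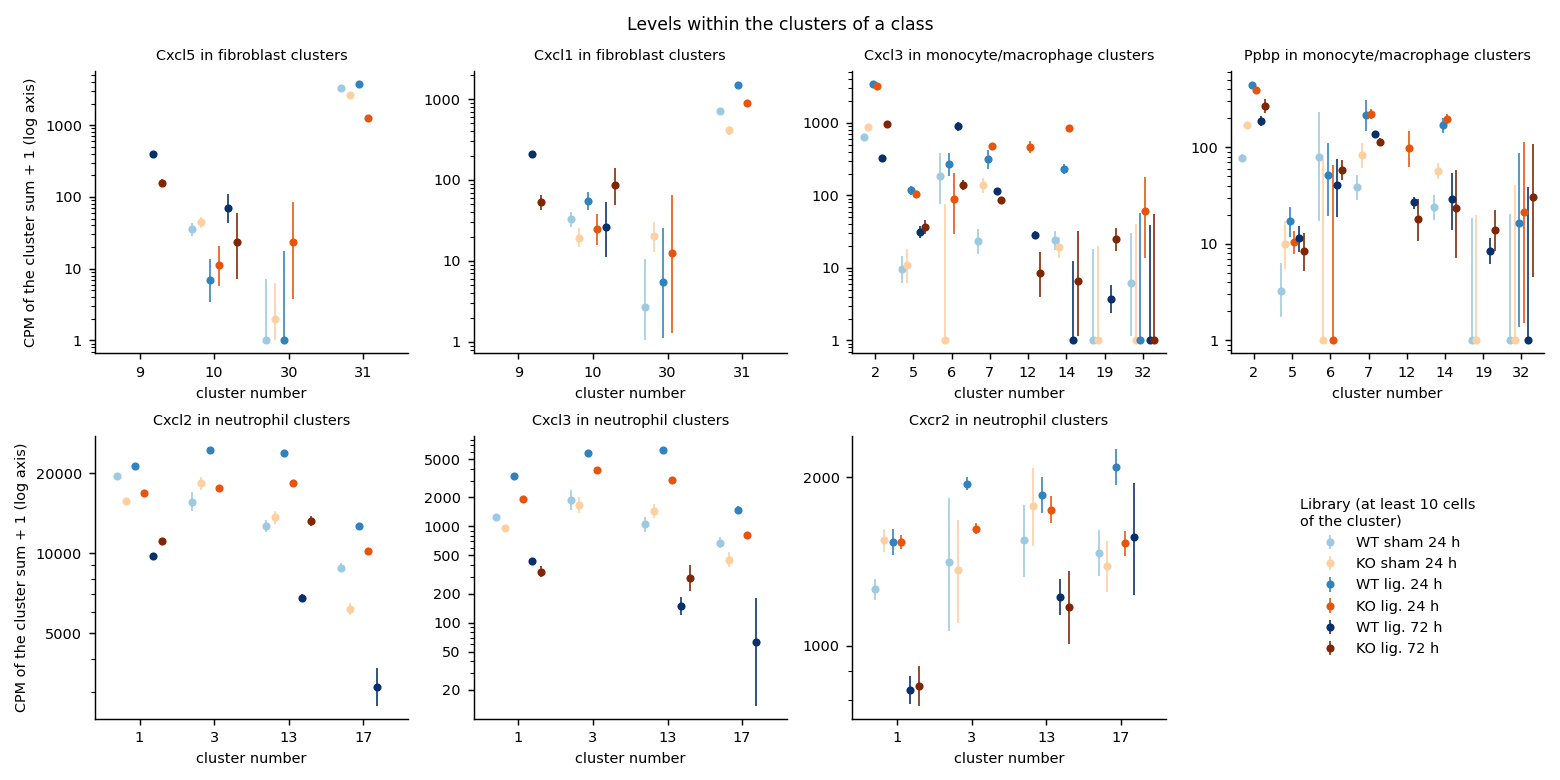
Level (CPM plus 1, log axis, with 95% counting intervals) of the genes in single clusters of fibroblasts, monocytes and macrophages, and neutrophils, by library, for clusters with at least 10 cells. Cxcl5 and Cxcl1 are concentrated in fibroblast cluster 31 up to 24 h, Cxcl3 in macrophage cluster 2, and Cxcr2 is spread over all neutrophil clusters.

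Ppbp, the gene of platelet basic protein whose trimmed form is the CXCR2 ligand CXCL7, was highest in platelets but lay mostly in macrophages. Its platelet level was 4411 CPM in WT sham (252 UMIs) and 5673 in KO sham (276 UMIs), 3875 in WT 24 h (521 UMIs) and 6853 in KO 24 h (254 UMIs), and 8343 in WT 72 h (405 UMIs) and 9496 in KO 72 h (119 UMIs). Only 16 to 175 platelets were present in a library, and they held 4.93% to 31.0% of its Ppbp UMIs, or 0.813% to 6.94% among cells with at least 1500 UMIs. Monocytes and macrophages held 58.5% and 71.0% in WT and KO sham, 77.1% and 88.0% at 24 h, and 74.9% and 65.3% at 72 h.

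The monocyte and macrophage level of Ppbp was 44.7 CPM in WT sham (476 UMIs) and 108 in KO sham (883 UMIs), 308 in WT 24 h (2583 UMIs) and 254 in KO 24 h (4530 UMIs), and 70.1 in WT 72 h (1883 UMIs) and 67.5 in KO 72 h (652 UMIs). The 24 h libraries were highest in both genotypes, and the intervals of the 72 h libraries overlapped. Platelet transcripts in the same cells were few: 7 platelet markers summed to 4.99 to 22.2 CPM there, against 13813 to 19631 CPM in platelets. Of the Ppbp-positive monocytes and macrophages, 4.85% to 17.0% had a UMI of any platelet marker, against 1.18% to 5.70% of those without Ppbp.

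Cluster 2 again held most of it up to 24 h, with 80.0% and 81.9% of monocyte and macrophage Ppbp in WT and KO sham and 92.7% and 86.8% at 24 h. At 72 h cluster 7 held 72.4% in WT and 57.2% in KO. The Ppbp level of cluster 2 was 77.0 and 171 CPM in sham, 441 and 389 at 24 h, and 187 and 269 at 72 h.

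**Figure D3:**
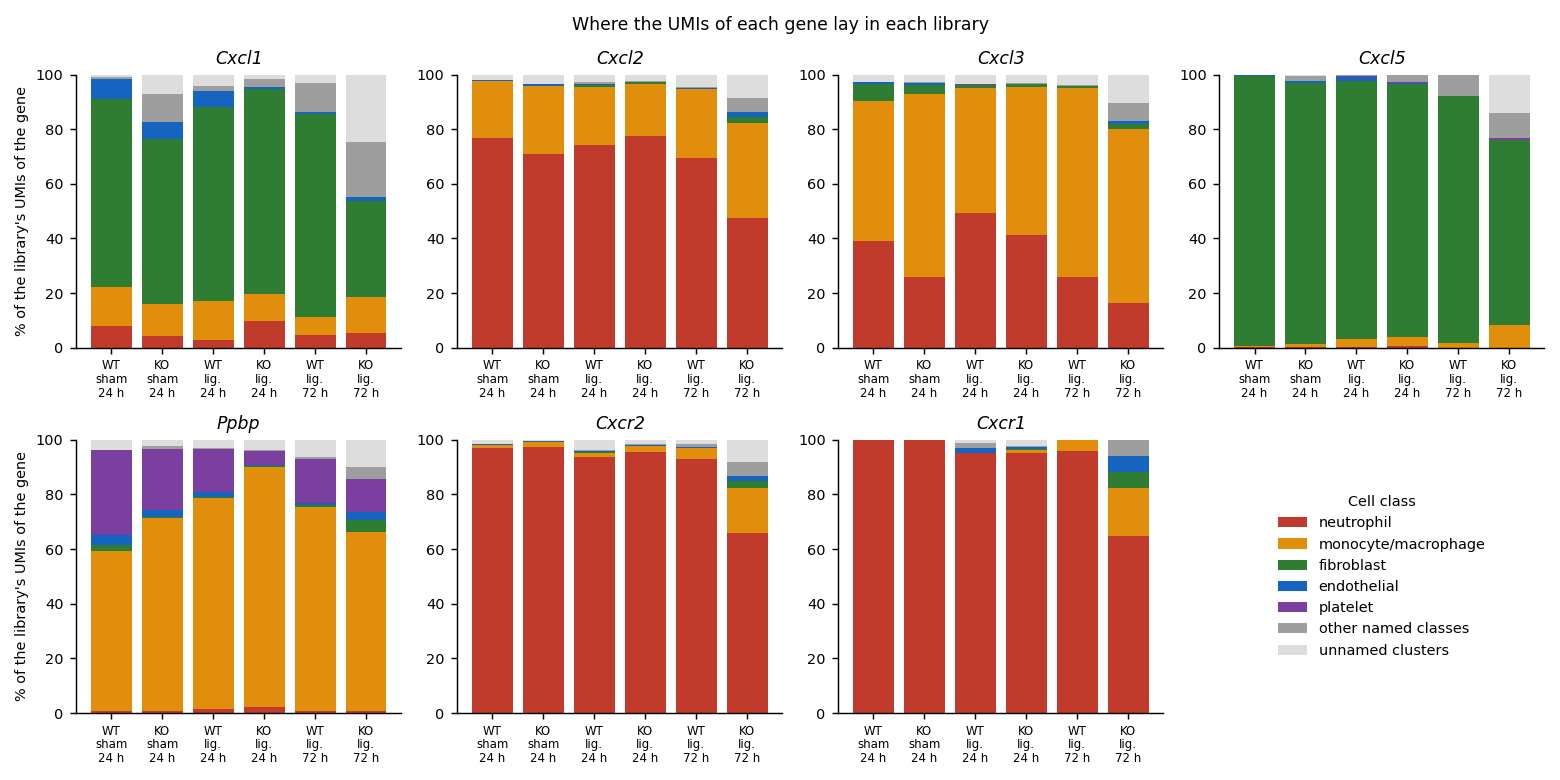
Share of each library's UMIs of a gene that lies in each cell class, in percent, for the 7 genes in the 6 libraries. Receptor transcripts are nearly all in neutrophils except in KO 72 h; Cxcl1 and Cxcl5 lie mainly in fibroblasts, Cxcl2 in neutrophils (47.3% in KO 72 h), and Ppbp in monocytes and macrophages, which also hold most Cxcl3 in every library except WT 24 h.

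On the receiving side, Cxcr2, the receptor shared by all 5 ligands, was a neutrophil transcript. Neutrophils held 97.1% of its UMIs in WT sham and 97.5% in KO sham, 93.7% and 95.7% at 24 h, and 92.8% and 66.0% at 72 h. Its level was 1308 CPM in WT sham (2797 UMIs) and 1522 in KO sham (2390 UMIs), 1861 in WT 24 h (7839 UMIs) and 1589 in KO 24 h (15177 UMIs), and 962 in WT 72 h (1966 UMIs) and 921 in KO 72 h (813 UMIs). Both 72 h libraries were below the other 4 and their intervals overlapped each other. The thinned share of neutrophils with a Cxcr2 UMI was 63.0% and 70.2% in sham, 75.8% and 73.8% at 24 h, and 54.6% and 52.1% at 72 h.

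All neutrophil clusters had Cxcr2. At 24 h the level in clusters 1, 3, 13 and 17 was 1533, 1949, 1862 and 2089 CPM in WT and 1531, 1618, 1750 and 1525 CPM in KO. At 72 h cluster 1 had 833 CPM in WT and 847 in KO, and cluster 13 had 1222 and 1174. The lower class level at 72 h was thus seen in both clusters with at least 10 cells of each genotype then.

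Few other cells had the receptor. Monocytes and macrophages had 2.82 and 4.75 CPM in WT and KO sham, 15.4 and 17.4 at 24 h, and 3.20 and 21.01 at 72 h, and in KO 72 h they held 16.5% of its Cxcr2 UMIs. Thinned, 0.257% to 1.05% of them had a UMI in 5 libraries and 3.87% in KO 72 h. B cells had 0% to 2.02% unthinned. The neutrophil marker sum in monocytes and macrophages was 542 and 698 CPM in sham, 2513 and 3565 at 24 h, and 252 and 2243 at 72 h, with Ly6g at 0 in KO sham and WT 72 h. Its part in the macrophage Cxcr2 was not tested.

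Cxcr1, the second receptor of the family, was scarce and again in neutrophils, which held 95.05% to 100% of its UMIs in 5 libraries and 64.7% in KO 72 h. Its level was 21.04 CPM in WT sham (45 UMIs) and 17.8 in KO sham (28 UMIs), 22.8 in WT 24 h (96 UMIs) and 23.2 in KO 24 h (222 UMIs), and 11.3 in WT 72 h (23 UMIs) and 12.5 in KO 72 h (11 UMIs). The intervals of the sham and 24 h libraries overlapped. Between 1.81% and 4.75% of neutrophils had a UMI, and no B cell did.

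Neutrophils therefore carried ligand and receptor transcripts in the same cells. Thinned to 1000 UMIs, 52.0% of neutrophils in WT sham, 56.5% in KO sham, 71.5% in WT 24 h, 66.6% in KO 24 h, 38.1% in WT 72 h and 38.2% in KO 72 h had UMIs of both Cxcl2 and Cxcr2. For Cxcl3 with Cxcr2 the shares were 16.8%, 17.7%, 49.6%, 35.2%, 5.86% and 7.48% in the same order. Joint detection does not mean that the transcripts go together. Cxcl2 was found in 82.5% of neutrophils with and 89.3% of those without a Cxcr2 UMI in WT sham, and in 80.6% and 85.8% in KO sham. The values were 94.4% and 96.0% in WT 24 h, 90.3% and 92.2% in KO 24 h, 69.8% and 69.5% in WT 72 h, and 73.2% and 76.0% in KO 72 h.

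Ligation at 24 h was then compared with sham. A gene entered a comparison when it had at least 50 UMIs over the pair of libraries in the class, and a difference of at least 2-fold is the size counted. In fibroblasts 4 of 4 measured members were at least 2-fold higher in WT, where 4.61% of all genes were, and 3 of 4 in KO (5 of 5 without doublet removal), where 3.87% were. The WT ratio was 5.34 for Cxcl1 (4.84 to 5.89), 3.17 for Cxcl5 (3.01 to 3.34) and 32.9 for Cxcl2 (25.0 to 44.1). Cxcl3 was barely past 2-fold in WT, with a log2 ratio of 1.01 and an interval that crosses the cutoff (0.82 to 1.20). In KO Cxcl1 was 7.43 times its sham level (6.57 to 8.42) and Cxcl5 1.88 times (1.76 to 2.01). Without the barcode that held most Cxcl5, its WT log2 ratio was 2.0 in place of 1.66, and with every cell weighted alike 3.06 in WT and, in place of 0.91, 1.53 in KO. Weighted alike, Cxcl1 had 3.61 in place of 2.42 in WT and 3.94 in place of 2.89 in KO.

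In monocytes and macrophages 6 of 6 members were at least 2-fold higher in WT, against 2.49% of all genes, and 4 of 6 in KO, against 1.76%. Cxcl3 had a ratio of 7.44 in WT (7.17 to 7.72) and 4.31 in KO (4.17 to 4.46). Ppbp had 6.88 in WT (6.23 to 7.60) and 2.36 in KO (2.20 to 2.54), and Cxcl2 had 3.42 in WT (3.35 to 3.504) and 2.29 in KO (2.24 to 2.35).

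In neutrophils 2 of 6 members were at least 2-fold higher in WT, against 5.04% of all genes, and 2 of 6 in KO, against 2.82%. These were Cxcl3, with 4.25 in WT (4.07 to 4.43) and 3.06 in KO (2.90 to 3.23), and the sparse Ppbp. Platelet markers in neutrophils were higher too, at 7.01 CPM in WT sham and 24.7 at 24 h and at 7.64 and 15.7 CPM in KO. In WT 24 h 45.9% of Ppbp-positive neutrophils had a platelet marker UMI, against 3.39% of the others, and the part of platelets in this Ppbp was not tested. Cxcl2 differed by only 1.30-fold in WT (1.28 to 1.31) and 1.18-fold in KO (1.16 to 1.20). Cxcr2 had 1.42 in WT (1.36 to 1.49), and Cxcr1 had 1.08 (0.753 to 1.58), which is within counting error.

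The 72 h libraries were next compared with the same 24 h libraries, which makes these ratios share values with those above. In WT all measured members were at least 2-fold lower in fibroblasts (4 of 4, against 15.8% of all genes) and in monocytes and macrophages (6 of 6, against 6.78%). The limits given above for Cxcr2, Cxcl1 and Cxcl5 in monocytes and macrophages apply to this count too. The fibroblast ratio was 0.268 for Cxcl1 (0.245 to 0.294) and 0.210 for Cxcl5 (0.197 to 0.224). In monocytes and macrophages it was 0.0341 for Cxcl3 (0.0326 to 0.0357), 0.0758 for Cxcl2 (0.0738 to 0.0779) and 0.228 for Ppbp (0.215 to 0.242).

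In KO 4 of 6 members were at least 2-fold lower in fibroblasts, against 6.79%, and 1 was at least 2-fold higher, against 6.54%, namely Ppbp with 46 against 11 UMIs (4.95, 2.53 to 10.6). In KO monocytes and macrophages 4 of 6 were at least 2-fold lower, against 2.73%. Cxcl3 in monocytes and macrophages had 0.0583 (0.0549 to 0.0618), Cxcl2 0.352 (0.344 to 0.361) and Cxcr2 1.21 (1.01 to 1.45). Fibroblast Cxcl1 had 0.0997 (0.0812 to 0.121). With every cell weighted alike, the log2 ratio was -4.45 in place of -3.33 for fibroblast Cxcl1 and -0.87 in place of -1.5 for Cxcl2 in monocytes and macrophages. All of these KO ratios rest on the shallow 72 h library.

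In neutrophils 3 of 6 members were at least 2-fold lower at 72 h in WT, against 6.95% of all genes, and 1 of 6 in KO (2 without the top barcodes), against 5.64%. The median log2 ratio over all measured genes was 0.54 in WT and 0.51 in KO here, so the members' values are given beside that shift. Cxcl3 had a ratio of 0.0771 in WT (0.0717 to 0.0828) and 0.116 in KO (0.103 to 0.131). Cxcl2 had 0.391 in WT (0.385 to 0.398) and 0.682 in KO (0.668 to 0.695). Cxcr2 had 0.517 in WT (0.492 to 0.543) and 0.580 in KO (0.539 to 0.622), short of 2-fold in both. The 3 members counted in WT were Cxcl3, Cxcl2 and the scarce Cxcr1, and the 1 in KO was Cxcl3. Cxcr1 had a log2 ratio of -1.02 in WT (-1.74 to -0.35) and -0.90 in KO (-1.92 to -0.03).

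**Figure D4:**
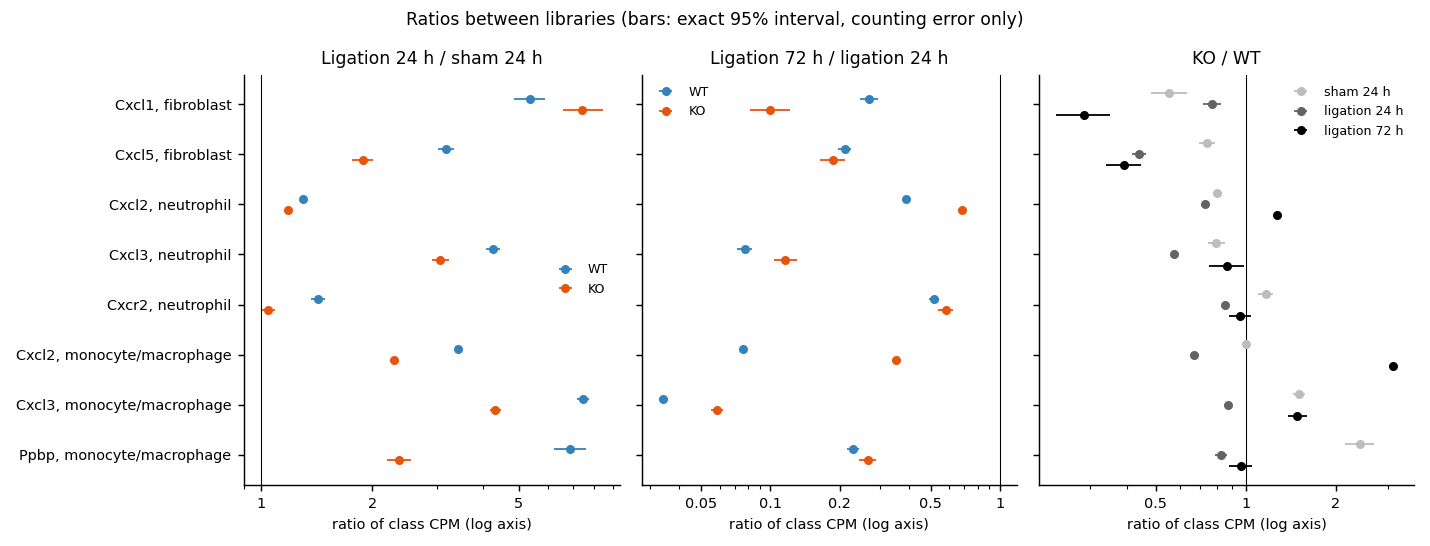
Ratio of class CPM (log axis) for members in their main classes, at 24 h against sham, 72 h against 24 h, and KO against WT, with 95% counting intervals. Ligands of fibroblasts and of monocytes and macrophages lie well above 1 at 24 h in WT and well below 1 at 72 h, while Cxcl2 and Cxcr2 in neutrophils lie nearer to 1.

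KO was compared with WT in each condition. At 24 h after ligation 1 of 4 members was at least 2-fold lower in KO fibroblasts (2 of 6 without doublet removal), against 2.38% of all genes, 2 of 6 in monocytes and macrophages (1 with the members among the clustering genes), against 1.51%, and 0 of 6 in neutrophils, against 1.15%. Fibroblast Cxcl5 had a ratio of 0.440 (0.416 to 0.465) and Cxcl1 0.771 (0.717 to 0.828), while Cxcl2 had 1.27 (1.17 to 1.37) and Cxcl3 a log2 ratio of 0.49 (0.32 to 0.66), both higher in KO. With every cell weighted alike, the Cxcl1 log2 ratio was 0.22 in place of -0.38, so its direction depends on the few cells that hold it. In monocytes and macrophages Cxcl1 had 0.218 (0.181 to 0.262) and Cxcl5 0.200 (0.145 to 0.271), of which Cxcl1 in WT lay mostly in 1 barcode. Monocyte and macrophage Cxcl3 at 0.871 (0.856 to 0.887) and Ppbp at 0.826 (0.787 to 0.867) were lower in KO by less than 2-fold. So were neutrophil Cxcl3 at 0.573 (0.563 to 0.583), Cxcl2 at 0.729 (0.723 to 0.735) and Cxcr2 at 0.854 (0.831 to 0.878).

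Sham and 72 h did not repeat one pattern. In sham, KO fibroblasts had 0.741 times the WT Cxcl5 level (0.696 to 0.790), which turns to a log2 ratio of 0.53 in place of -0.43 with every cell weighted alike. Monocytes and macrophages had 2.40 times the Ppbp (2.15 to 2.69) and 0.9995 times the Cxcl2 (0.970 to 1.03), and neutrophils had 1.16 times the Cxcr2 (1.10 to 1.23). At 72 h fibroblast Cxcl5 had 0.390 (0.341 to 0.444), monocyte and macrophage Cxcl2 3.11 (3.01 to 3.21), neutrophil Cxcl2 1.27 (1.24 to 1.30) and neutrophil Cxcr2 0.958 (0.882 to 1.04). With 1 pooled library per genotype and condition, genotype cannot be told apart from the pool, the strain or the library.

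The inducers and NF-kB components named for the family were read in the same cells. Of 14 measured genes of this list in monocytes and macrophages, 2 were at least 2-fold higher at 24 h than in sham in WT (against 2.49% of all genes), Il1b (2.07-fold) and its co-receptor Il1rap (2.23-fold), and 0 in KO (against 1.76%), where Il1b was 1.80-fold. The list's median log2 ratio was 0.51 in WT, beside -0.12 over all genes. At 72 h against 24 h 9 of 14 were at least 2-fold lower in WT (against 6.78%), among them Il1a (0.0919) and Il1b (0.204), and 2 of 14 in KO (against 2.73%), Il1a (0.229) and the lipopolysaccharide receptor Tlr4 (0.493). In neutrophils at 24 h Tlr4 had a ratio of 2.63 in WT and 1.54 in KO, and Tnf had 0.483 in WT and 0.411 in KO.

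Of 7 other chemoattractant receptors in neutrophils, 2 were at least 2-fold higher at 24 h in WT (against 5.04% of all genes), the leukotriene B4 receptor Ltb4r1 (2.70-fold) and the formyl peptide receptor Fpr1 (2.13-fold), and 0 in KO (against 2.82%), where they were 1.58-fold and 1.57-fold. At 72 h 3 of 7 were at least 2-fold lower in each genotype, against 6.95% of all genes in WT and 5.64% in KO. Fpr1 then had 0.226 in WT and 0.204 in KO, and Ltb4r1 0.236 and 0.230, while Cxcr4, the receptor that holds neutrophils in the marrow, had 1.62 and 1.89. Of the 15 genes of the machinery below CXCR2, such as its G protein and kinase genes, 1 was at least 2-fold lower at 24 h in WT, the phospholipase gene Plcb2 (0.476), against 8.25% of all genes, and 0 in KO, against 4.12%, while 0 were at least 2-fold higher in either genotype. At 72 h 1 was at least 2-fold higher in WT, Plcb2 (2.28), against 32% of all genes, and 1 in KO, the receptor kinase gene Grk6 (2.64), against 29.2%, and 0 were at least 2-fold lower.

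The neighbour Pf4, platelet factor 4, which lies in the same chemokine cluster, had 342845 UMIs and stood at 23596 to 28482 CPM in platelets and 2457 to 4804 CPM in monocytes and macrophages. Ackr1, which binds these chemokines on venules, had 145 UMIs in all and 1.23 to 13.1 CPM in endothelial cells, and Cxcl15 had 10 UMIs.

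The genes most like each member across 39 pairs of class and library were ranked by Pearson correlation of log2(CPM + 10) among 11383 genes. These pairs share libraries and depth, so the values are descriptive. Cxcl1 was most like Cxcl5 (0.90) and Tnfaip6 (0.89), Cxcl5 most like Gli3 (0.93) and Twist2 (0.92), and Cxcl2 most like Ccl3 (0.95), Clec4e (0.95) and Il1b (0.94). Cxcl3 was most like Cebpb (0.89), Ppbp most like Pf4 (0.86), and Cxcr2 most like Hdc (0.99), the histamine-forming enzyme. Hdc was also among the markers that named the neutrophils. Its likeness to Cxcr2 over class sums therefore partly restates that both lie in this class. The ranking depends on the pseudocount: with 1 in place of 10, the first 5 genes shared 4 of 5 for Cxcl1, 3 for Cxcl3, 2 each for Cxcl2, Ppbp and Cxcr2, and 1 for Cxcl5, whose first gene was then Entpd2 (0.88).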

How the data were processed

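The deposited matrices hold UMI counts per gene and cell barcode (10x 3' chemistry), made by the authors with Cell Ranger 6.0.0 and mm10, per the submitters' processing notes; 1 matrix per library, 6 libraries. Cells with at least 200 genes and at most 20% mitochondrial UMIs were kept and the highest doublet scores removed (0.8% per 1000 cells). The kept cells were clustered jointly in scanpy 1.11.5 and leidenalg 0.10.2 (2000 variable genes without the 7 members, 30 components, 20 neighbours, resolution 1), and clusters were named from marker lists. Counts were summed per class and library and divided by the class total (CPM). Intervals are exact at 95% (scipy 1.17.1): Poisson for a level, binomial for a share, and conditional on 2 Poisson counts for a ratio. A ratio was computed for classes of at least 100 cells in both libraries; a count of 0 was set to 3. Code for ratios was tested on simulated counts. Alternatives tried were the clustering resolution, doublets, the clustering genes, depth, weighting of cells and the top barcode. The members and gene lists were chosen with earlier results of these data known; the text names the 7 members, at most 2 highest and 2 lowest genes of a list, and the genes most like a member. Promoters come from RefSeq.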

Additional observations from a re-analysis of the deposited data

Results flagged for a closer look

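In 17 cases the ratio of a member between libraries pointed one way in 1 group and the other way in another, each beyond counting error; with 1 library per group no such difference was tested. The values are differences of log2 ratios, and for the 15 on KO against WT they are the later condition minus the earlier. In monocytes and macrophages Cxcl1 differed by 1.43 between 72 h and sham and by 3.16 between 72 h and 24 h, where 1 WT barcode holds most of its 24 h UMIs. Cxcl5 in the same class, a sparse transcript there, differed by 4.43 between 72 h and 24 h. Cxcl2 in monocytes and macrophages differed by 2.22 between 72 h and 24 h, and in neutrophils by 0.66 between 72 h and sham and by 0.80 between 72 h and 24 h. Cxcl3 in monocytes and macrophages differed by -0.79 between 24 h and sham and by 0.77 between 72 h and 24 h. Ppbp in monocytes and macrophages differed by -1.54, and Cxcr2 in neutrophils by -0.45, between 24 h and sham. In endothelial cells Cxcl2 differed by 1.55 between 24 h and sham and by 3.23 between 72 h and sham, and Cxcl3 by 2.68 between 24 h and sham. The part of neutrophil transcripts in these endothelial values was not tested. Cxcl3 in fibroblasts differed by 1.70 between 24 h and sham and by 2.48 between 72 h and sham. The other 2 cases compare 72 h with 24 h, KO minus WT, and were 1.69 for endothelial Cxcl2 and 2.53 for monocyte and macrophage Cxcr2. The 72 h values rest on the shallow KO library, and the part of depth in them was not tested.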

How the results depend on the processing

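No paired analysis was possible because each group is 1 library and no result comes from a test; for the same reason no replicate could be left out. The share of Cxcl5 in WT 24 h fibroblasts (94.4%) was 92.8% without doublet removal, 97.1% with the members among the clustering genes and 93.6% without the top barcode. The WT 24 h neutrophil share of Cxcl2 (74.3%) was 76.1% at resolution 0.5, 71.2% without doublet removal and 73.9% with the members among the clustering genes, and that of Cxcr2 (93.7%) was 97.3% and 90.2% under the first 2 of these. The macrophage share of Ppbp (77.1%) was 75.1% without doublet removal and 90.5% in cells with at least 1500 UMIs. On the log2 scale, 24 h against sham in WT, Cxcl5 in fibroblasts (1.66) was 1.56 without doublet removal, 3.06 with cells weighted alike and 2.0 without the top barcode. Weighted alike, neutrophil Cxcl3 (2.09) was 2.17 and macrophage Ppbp (2.78) 2.95. Macrophage Cxcl3 at 72 h against 24 h in WT (-4.87) was -5.07 at resolution 0.5, -5.11 at resolution 2, -5.01 without doublet removal, -4.98 with the members among the clustering genes and -4.98 without the top barcode. For KO against WT at 24 h, fibroblast Cxcl5 (-1.18) was -1.02 without doublet removal and -1.0 weighted alike, and neutrophil Cxcl3 (-0.80) was -0.84 weighted alike. Weighted alike, 2 ratios of KO to WT changed sign: fibroblast Cxcl1 at 24 h to 0.22 and fibroblast Cxcl5 in sham to 0.53. Without doublet removal, 5 in place of 3 members were at least 2-fold higher in KO fibroblasts at 24 h, and 2 in place of 1 lower in KO than WT there. With the members among the clustering genes, 1 in place of 2 was lower in KO macrophages at 24 h, and without the top barcode 2 in place of 1 were lower in KO neutrophils at 72 h. The cause was not tested. Few UMIs limit the precision of Cxcr1, with 11 to 222 in neutrophils per library.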
